A study of Mus musculus with 4 samples.

Results

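Expression of 10 regulators of DNA methylation and chromatin was followed in reprogrammed cardiac mesenchymal progenitors (CMPs). The genes were Dnmt1, Dnmt3a, Dnmt3b, Uhrf1, Hells, Tet1, Tet2, Tet3, Ezh2 and Hmga2. They were chosen by name, and every probe that carried one of these gene names in the array files was used. This gave 20 of the 55681 probes and 10 of the 16657 genes that were measured. All 20 probes were well above background on at least 1 array and were kept, and 17 were so on all 4 arrays.

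CMPs are Sca-1+ cells, isolated in this study from the atria of adult C57BL/6 mice. The first array held untreated cells on day 0 (CMP control), grown with bFGF. The other arrays held CMPs transduced with Sendai virus encoding Oct4, Sox2, Klf4 and c-Myc (OSKM-CMPs) on day 4, day 6 and day 8 in reprogramming medium without leukemia inhibitory factor. Each condition had 1 array, and total RNA was labelled with Cy3. No array of an untreated culture at a later day was analysed here, so the virus, the 4 factors, the change of medium and time in culture cannot be told apart. No genes were deleted, and the number of animals behind each RNA was not given in the sources used here. Without replicates there is no test between conditions and no p-value. The error given with each change (±) is 1 SD from the error model of the scanner software. It covers neither cultures nor RNA preparation, and the number of arrays limits the precision.

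All 4 arrays were read in 1 scan, and no spot was saturated. Between 56.6% and 59.6% of the probes on an array were well above background, and the median SD between repeated spots was 0.08 on the log2 scale. Sca-1 (Ly6a), Pdgfra and Col1a1 were well above background on every array. All 12 CMP and mesenchymal markers were so too, with a summed level between 1623 and 1975 in units of the 75th percentile signal of each array. Single markers moved in both directions. On day 8 Thy1 and Eng changed by -1.78 ± 0.20 and -1.19 ± 0.20, and Ly6a and Nt5e by 2.69 ± 0.20 and 2.10 ± 0.21. The other markers of this list stayed within 2-fold on that day. Among 10 measured leukocyte markers, 10 were above background in the control and 8 to 9 in OSKM-CMPs, at a summed level of 3.79 to 4.30. The 8 endothelial markers were above background in the control and 5 of them on each OSKM-CMP array, 4 were at least 2-fold lower on day 8, and they summed to 6.76, 10.5, 5.30 and 3.67 in order of time. Egfl7 made the largest part of each of these sums, and it changed by 0.96 ± 0.20 on day 4 and -0.92 ± 0.20 on day 8. Cdh5, the endothelial cadherin, was below background on all OSKM-CMP arrays. Of 8 measured cardiomyocyte markers, 4 were above background in the control, 8 on days 4 and 6, and 7 on day 8. Their sum was 12.1 in the control and 4.43 on day 8, where Tnnt2 changed by -1.60 ± 0.20, but 4 of the 8 were at least 2-fold higher and the median change was 1.04. Of these 4, Myh6, Tnni3 and Myl7 were below background in the control, so their folds start near the floor. The median was 0.31 with probes well above background on all 4 arrays, and 0.14 with normexp background correction and quantile normalization. The cardiac myosin Myh6 was below background in the control and above it on all OSKM-CMP arrays. The pan-leukocyte gene Ptprc was near background throughout and below it on day 4. On day 8, 2 leukocyte markers were at least 2-fold higher, Coro1a at 1.12 ± 0.23 and Cd68, with a probe below background, at 1.56 ± 0.42. Tyrobp was the 1 that was lower, and it was below background on all OSKM-CMP arrays. The 12 adipocyte markers were all at least 2-fold higher on day 8, and their summed level was 13.1 in the control, 54.9 on day 4, 198 on day 6 and 422 on day 8. In RNA from whole cultures, fewer cells of a type and less RNA per cell cannot be told apart.

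Methylation of cytosine at CpG sites is copied at each round of replication by the maintenance methyltransferase Dnmt1, which Uhrf1 brings to hemimethylated DNA, with help from the remodeler Hells. Dnmt3a and Dnmt3b place new marks, and the Tet dioxygenases oxidise methylcytosine, a first step towards its removal. Ezh2 is the catalytic subunit of Polycomb repressive complex 2 (PRC2), which methylates histone H3 at lysine 27, and Hmga2 is an architectural protein that binds AT-rich DNA and is abundant in embryonic and mesenchymal progenitor cells.

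At day 8, Uhrf1, Dnmt1 and Hells of maintenance methylation, the PRC2 subunit Ezh2 and Hmga2 were lower in OSKM-CMPs than in the CMP control. Uhrf1 was 10.6-fold lower, Hmga2 4.07-fold, Hells 2.64-fold, Ezh2 2.38-fold and Dnmt1 2.29-fold. Tet1 was 4.17-fold higher and Tet2 2.35-fold higher. The Uhrf1 mean includes a probe below background on day 8, and the Tet1 mean a probe below background in the control. With probes well above background on all 4 arrays alone, the day 8 log2 changes were -3.00 for Uhrf1 and 1.87 for Tet1. Dnmt3a, Dnmt3b and Tet3 stayed within 2-fold of the control on all 3 days. The value of a gene is the mean log2 signal of its probes, relative to the 75th percentile on its array, and a gene was counted as changed at 2-fold or more. Signals that a probe or gene read on an array are given before this scaling, while changes and folds are after it.

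At day 4, 1 of the 10 genes (Uhrf1) was at least 2-fold lower, where 9.57% of all measured genes were, and 1 (Tet1) was at least 2-fold higher, where 12.1% were. At day 6, 3 genes (Uhrf1, Hells and Hmga2) were lower against 11.4% of all genes, and 2 (Tet1 and Tet2) were higher against 13.0%. At day 8, 5 of 10 were lower against 11.6% of all genes, and 2 of 10 were higher against 14.4%. The share of higher genes among all changed genes on day 8 was 55.3%, and it was 40.0% when each array was scaled to its median, a scale on which the median change of all genes was -0.30. The median change of the 10 genes on day 8 was -0.51 on the log2 scale, and that of all genes was -0.03. The share of higher genes among the 10 was near the background on each day, and the share of lower genes exceeded it on days 6 and 8. The genes were listed with earlier results of these data known, so these shares describe them and are not a test.

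**Figure D1:**
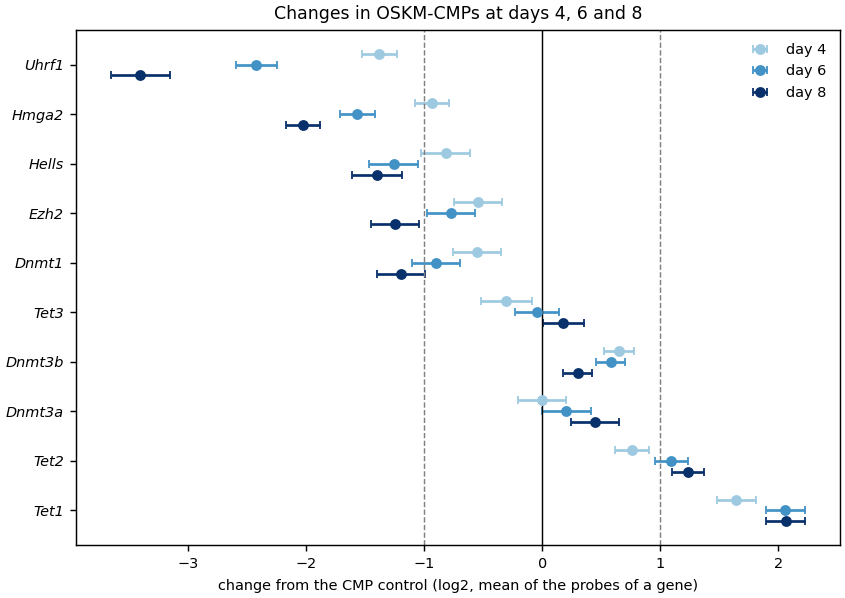
Change of each gene from the CMP control on day 4, day 6 and day 8 (x axis, log2), with genes ordered by their change on day 8. Points are means over the probes of a gene, bars are 1 SD of the scanner error model, and dashed lines mark 2-fold. Uhrf1 lies farthest to the left at -3.40 and Tet1 farthest to the right at 2.06, while Tet3, Dnmt3b and Dnmt3a lie between the dashed lines.

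Dnmt1, the maintenance methyltransferase, was measured by 1 probe at chr9:20711973-20712341 (minus strand, mm9) and spans 369 bases of the genome. Its signal was 1021 in the CMP control, 696 on day 4, 571 on day 6 and 471 on day 8. The control was the highest of the 4 arrays and each later array was lower than the one before. The change was -0.55 ± 0.20 on day 4, -0.90 ± 0.20 on day 6 and -1.19 ± 0.20 on day 8 on the log2 scale.

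Uhrf1, the protein that recognises hemimethylated CpG sites and recruits Dnmt1, had 2 probes on chromosome 17. The probe at chr17:56462770-56462829 (plus strand, mm9) read 7483 in the control, 3037 on day 4, 1731 on day 6 and 987 on day 8. The probe at chr17:56451668-56452321 read 115, 41.9 and 19.0 on the first 3 arrays and was not well above background on day 8. Both probes were highest in the control and lowest on day 8, so the order of the arrays was the same at both positions. At day 8 the brighter probe was 8.00-fold lower and the dimmer at least 11.7-fold lower. The mean change of Uhrf1 was -1.38 ± 0.15 on day 4, -2.42 ± 0.18 on day 6 and -3.40 ± 0.25 on day 8. Of the 16657 genes, 184 had a lower change on day 8 than this mean, which includes the dimmer probe as read. The size depends on the background correction, since normexp correction with quantile normalization gave -2.13 on day 8.

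Hells, an SNF2-type remodeler needed for methylation of repeats, was read by 1 probe at chr19:39039914-39039973 (plus strand, mm9). Its signal was 234 in the control, 132 on day 4, 102 on day 6 and 93.5 on day 8. The largest step came before day 4, which was also the longest interval. The values on day 6 and day 8 differed by less than their error, by -0.14 ± 0.21. The change from the control was -0.82 ± 0.21 on day 4, -1.26 ± 0.21 on day 6 and -1.40 ± 0.21 on day 8.

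The de novo methyltransferases did not share this course. Dnmt3a, measured at chr12:3914320-3914379 (plus strand, mm9), read 1519 in the control, 1512 on day 4, 1827 on day 6 and 2189 on day 8, and its change on day 8 was 0.45 ± 0.20. The control and day 4 were nearly equal and day 8 was the highest. Dnmt3b had 3 probes within chromosome 2, the brightest of which read 152, 291, 275 and 224 on the control, day 4, day 6 and day 8 arrays. All 3 Dnmt3b probes were lowest in the control, by 0.65 ± 0.12 on day 4 in the mean and by 0.30 ± 0.12 on day 8. Neither gene reached 2-fold on any day under the processing used here.

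Tet1, a dioxygenase with a CXXC domain that binds CpG-rich DNA, had the highest change of the 10 genes on every day. Its probe at chr10:62274448-62274507 (minus strand, mm9) read 63.6 in the control, 290 on day 4, 393 on day 6 and 406 on day 8. A probe at chr10:62276042-62276101 read 54.6, 94.0, 122 and 128 in the same order. Another probe, at chr10:62301856-62301915, was not well above background in the control and read 46.8, 72.5 and 69.3 on days 4, 6 and 8. All 3 probes were lowest in the control, and day 6 and day 8 were close to each other at each of them. At day 8 the probes were 6.05-fold, 2.22-fold and at least 5.41-fold higher. The first and the second of these differed by 1.45 ± 0.30 on the log2 scale, and the first and the last by 0.16 ± 0.44. The mean change was 1.64 ± 0.17 on day 4, 2.06 ± 0.16 on day 6 and 2.06 ± 0.16 on day 8, and normexp correction with quantile normalization gave 1.01 on day 8.

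Tet2, which lacks the CXXC domain, also had 3 probes. The probe at chr3:133126751-133126810 (minus strand, mm9) read 384 in the control, 816 on day 4, 1171 on day 6 and 1365 on day 8. Its neighbour at chr3:133126905-133126964 read 102, 227, 323 and 364. The order of the arrays was the same at both, with the control lowest and day 8 highest, and their changes on day 8 were 1.75 ± 0.20 and 1.75 ± 0.21. The last probe, at chr3:133176421-133176479, was made to a separate cDNA record. It read 20.7, 21.3, 23.7 and 25.2, and its change of 0.20 ± 0.30 on day 8 was 1.55 ± 0.36 lower than that of either other probe. The mean of the 3 probes was 0.76 ± 0.14 on day 4, 1.09 ± 0.14 on day 6 and 1.24 ± 0.14 on day 8. It was 0.97 on day 8 with the array median as the scale and 0.98 with normexp correction and quantile normalization, just under 2-fold.

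Tet3, the Tet enzyme known for oxidising the paternal genome in the zygote, had 3 probes with no common course. The brightest read 156 in the control, 135 on day 4, 128 on day 6 and 149 on day 8. The second read 45.7, 34.5, 44.0 and 51.4, and the dimmest was above background on day 6 and day 8 alone, at 17.6 and 21.2. The mean change on day 8 was 0.18 ± 0.17, and its sign differed in 5 of 10 alternative ways of processing.

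Ezh2 was measured at chr6:47480307-47480366 (minus strand, mm9). The signal was 1455 in the control, 998 on day 4, 890 on day 6 and 646 on day 8. Each array was lower than the one before. The change was -0.54 ± 0.20 on day 4, -0.77 ± 0.20 on day 6 and -1.25 ± 0.20 on day 8.

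Hmga2 had 2 probes on the minus strand of chromosome 10. The probe at chr10:119798739-119798798 (mm9) read 6051 in the control, 3053 on day 4, 2213 on day 6 and 1536 on day 8. The probe at chr10:119800621-119800680 read 1443, 781, 491 and 383. Both were lower at every step, and their changes on day 8, -2.06 ± 0.20 and -1.99 ± 0.20, differed by less than their error. The mean change was -0.93 ± 0.14 on day 4, -1.56 ± 0.14 on day 6 and -2.02 ± 0.14 on day 8.

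**Figure D2:**
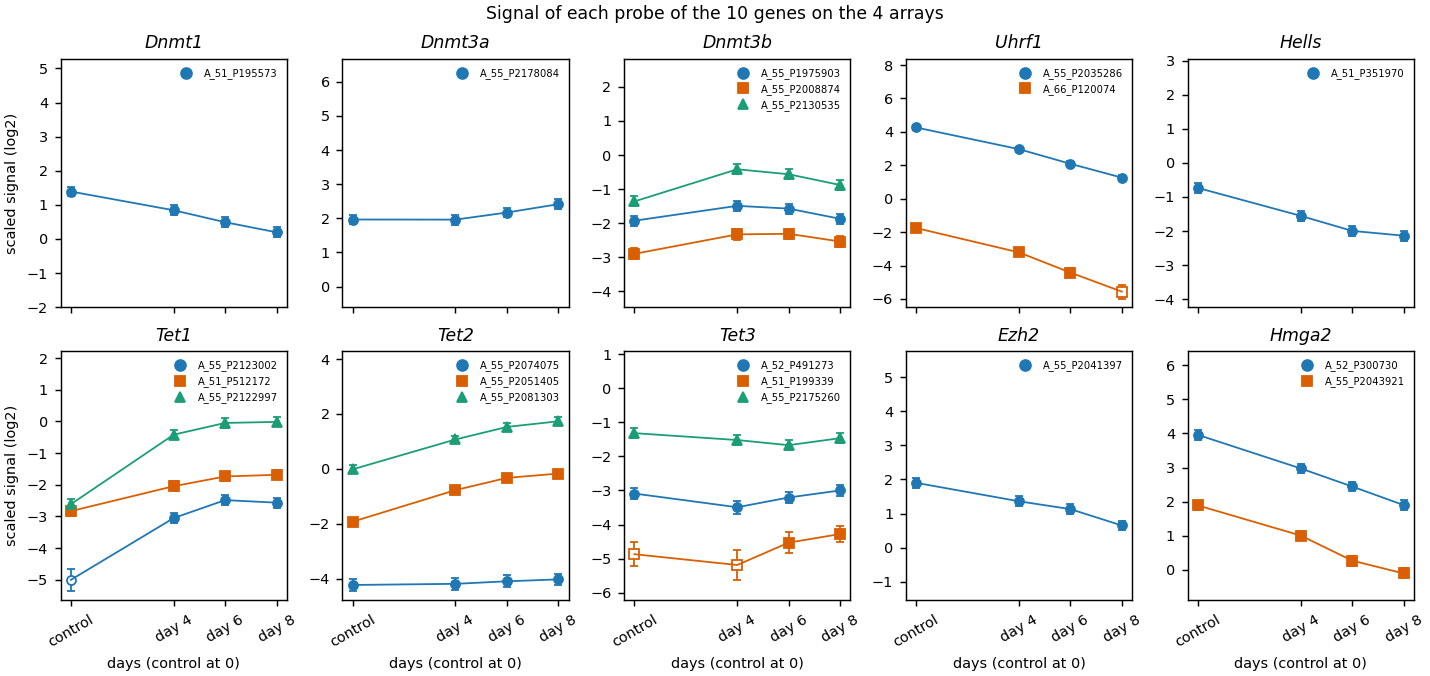
Log2 signal of each of the 20 probes minus the 75th percentile of its array (y axis) against the day of the array (x axis, CMP control at 0). Bars are 1 SD of the scanner error model, open symbols were not well above background, and each panel has its own y axis. The 2 probes of Uhrf1 and of Hmga2 run down together, while 1 of the 3 Tet2 probes stays level.

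The order of the changes on day 8, from the lowest, was Uhrf1, Hmga2, Hells, Ezh2, Dnmt1, Tet3, Dnmt3b, Dnmt3a, Tet2 and Tet1. Neighbours within the run of Hells, Ezh2 and Dnmt1 differed by less than the error of the difference, as did those within the run of Tet3, Dnmt3b and Dnmt3a. The gap between Uhrf1 and Hmga2 was 1.38 ± 0.29, and that between Tet2 and Tet1 was 0.83 ± 0.21. Both gaps use a mean that includes a probe below background.

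Over the 4 arrays in order of time, 5 of the 10 genes were lower on each array than on the one before and 2 were higher. Among all genes, 15.9% were lower and 12.4% higher at every step. The step from day 6 to day 8 was within its error for Hells, at -0.14 ± 0.21, and for Tet1, at 0.002 ± 0.12. With quantile normalization the change of Tet1 was 1.91 on day 6 and 1.86 on day 8. The share of the day 8 change reached by day 4 was taken without an error. Small differences in it are not read as timing. Tet1 had reached 79.8% of its day 8 change by day 4 and Tet2 61.5%, and these shares were 58.5% for Hells, 46.1% for Hmga2, 46.0% for Dnmt1, 43.3% for Ezh2 and 40.5% for Uhrf1. Between day 4 and day 8 alone, 2 of the 10 genes were at least 2-fold lower, Uhrf1 by -2.03 ± 0.25 and Hmga2 by -1.09 ± 0.14, where 4.10% of all genes were. None of the 10 was at least 2-fold higher between these days, where 4.93% of all genes were.

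Genes of DNA replication and mitosis were lower over the same days. Of 26 measured proliferation markers, 17 were at least 2-fold lower on day 4, 21 on day 6 and 24 on day 8, with median changes of -1.14, -1.77 and -2.06. Their summed level was 438 in the control, 231 on day 4, 169 on day 6 and 132 on day 8. E2f2 was the marker that was at least 2-fold higher, by 1.01 ± 0.20, and E2f7 changed by -0.97 ± 0.15. Uhrf1, Dnmt1, Hells and Ezh2 are known to be expressed more in dividing cells. The part of the proliferation markers, or of the adipocyte markers that were higher, in the changes of the 10 genes was not tested.

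**Figure D3:**
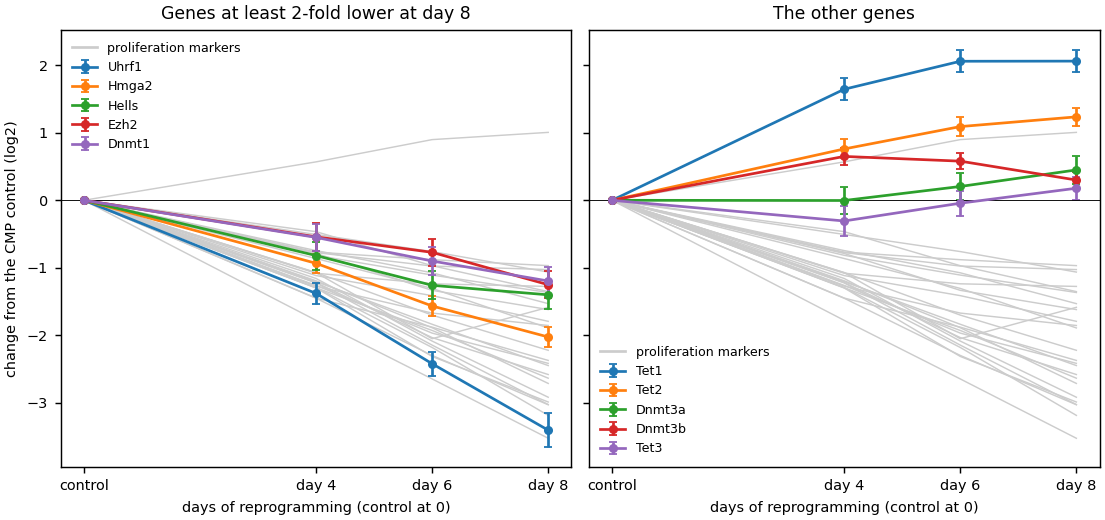
Change from the CMP control (y axis, log2) against the day (x axis) for the 5 genes that were at least 2-fold lower on day 8 (left) and the other 5 (right), with bars of 1 SD of the scanner error model. Grey lines are the 26 proliferation markers, whose median was -2.06 on day 8. Uhrf1 runs along the lower edge of the grey lines, and Dnmt1 and Ezh2 along their upper part.

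The genes with the nearest time courses were sought among about 13758 genes that were well above background on all arrays, by the Euclidean distance over the 3 log2 changes. The distances were taken without an error. A single change on day 8 had a median error of 0.20 over all genes, so ranks among near genes and counts within 0.25 are not resolved. Nearest to Uhrf1 were Shcbp1, Fam131b and Kif22, a chromosome-binding kinesin, at distances of 0.17 to 0.18, and 7 genes lay within 0.25 of it. Dnmt1 had 130 genes within 0.25, with Nup43, a nucleoporin, H2ac10, a histone H2A gene, and Ackr1 nearest. Ezh2 had Nup43, the kinase Vrk1 and Dnmt1 itself as nearest genes, and Dnmt1 and Ezh2 were the closest pair among the 10 at a distance of 0.14. Tyms-ps, Fam83d and Haus8 were nearest to Hmga2, and Gm5526, Myl6 and Prss53 to Hells. Aqp8, Btc and Rnf213 were nearest to Tet1, and Enpp4, Aox1 and Pm20d2 to Tet2. Tyms-ps and Gm5526 are named as pseudogenes or predicted genes and may share probe signal with related transcripts.

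Short words of the kind bound by E2F factors were looked up around the start sites of the 10 genes. RefSeq windows of 250 bases before to 50 bases after each start (GRCm38.p6) were searched on both strands for TTTCCCGC, TTTGGCGC, TTTCGCGC and TTTGCCGC. Of 32851 windows 2.26% held at least 1 of them, and 4 of the 15 windows of the 10 genes did, each from a different gene. The matches are shown in capitals within 30 bases of each promoter, read 5′ to 3′ along the strand of the gene.
Hells: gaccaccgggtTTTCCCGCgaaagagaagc
Uhrf1: cccgagtcgggTTTCGCGCgcccaggcgtc
Ezh2: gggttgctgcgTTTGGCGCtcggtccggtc
Dnmt1, upstream: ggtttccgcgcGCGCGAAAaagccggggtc
Dnmt1, downstream: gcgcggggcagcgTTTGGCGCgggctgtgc

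The Hells stretch is chr19:38930917-38930946 (plus strand), with its match 62 bases before the start. The Uhrf1 stretch is chr17:56304117-56304146 (plus strand), 185 bases before the start, in 1 of 2 windows of the gene. The Ezh2 stretch is chr6:47595009-47595038 (minus strand), where the match begins at base 4 after the start. The Dnmt1 stretches are chr9:20952824-20952853 and chr9:20952574-20952603 (minus strand), 219 bases before the start, with the word on the opposite strand, and at base 34 after it, in 1 of 3 windows of the gene. These 4 genes were each at least 2-fold lower on day 8. The same words were not in the windows of Hmga2, Dnmt3a, Dnmt3b, Tet1, Tet2 or Tet3. The words were chosen after the expression values had been seen, from 19 words looked at. The shorter words TTCCCGC and TTGGCGC were in 6.81% of all windows and in those of 5 of the 10 genes, with Hmga2 as the fifth. A match is a description of the letters in the window and does not show binding.

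Of the factors carried by the virus, c-Myc is known to bind the E-box CACGTG and Klf4 words such as GGGTGTGG and GGGCGTGG. The E-box was in 7.15% of all windows and, among the 10 genes, in 1 window of Dnmt3a, 80 bases before the start. Either Klf4-type word was in 8.58% of all windows and in 1 window of Uhrf1, 23 bases before the start. The octamer ATGCAAAT, bound by Oct factors, was in 1.74% of all windows and in none of the 10 genes. Both matches are shown in capitals.
Dnmt3a, chr12:3891652-3891681 (plus strand): tccagtggggccCACGTGacctggagttct
Uhrf1, chr17:56304279-56304308 (plus strand): gcggcggatgtGGGCGTGGgctctgtgcct

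Hmga2 is a textbook target of the let-7 miRNAs, which share the seed of bases 2 to 8, given in capitals for 3 of the 8 mature let-7 sequences of RefSeq that hold it.
mmu-let-7a-5p: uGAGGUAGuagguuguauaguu
mmu-let-7e-5p: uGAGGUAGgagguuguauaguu
mmu-let-7g-5p: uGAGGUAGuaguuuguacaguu
The complement of this seed, CTACCTC, lies within the brighter Hmga2 probe, in capitals in the stretch chr10:119798747-119798776 (minus strand, mm9).
Hmga2 probe: gttgtacaatcaaaacacactaCTACCTCt
Of the 55681 probes, 204 (0.366%) held these letters. Mature miRNAs were not measured on these arrays. Lin28a, which blocks let-7 maturation, changed by -0.24 ± 0.21 on day 8. Lin28b was not among the measured genes. Among the RNA-binding Igf2bp proteins, Igf2bp1 was lower by -2.05 ± 0.25 on day 8, and Igf2bp3 was higher by 2.25 ± 0.21 and already by 2.62 on day 4. Igf2bp2, named after its values had been seen, changed by 0.84 ± 0.14 on day 4 and by 0.12 ± 0.14 on day 8.

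The partners of the 10 genes were described through 14 lists of chromatin genes with 235 measured genes in all. At day 8, 22 of them (9.36%) were at least 2-fold lower and 16 (6.81%) at least 2-fold higher, both below the shares over all genes of 11.6% and 14.4%. Their median change was 0.04. With the array median as the scale and the median change of all genes subtracted, 20 were lower and 17 higher.

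Among 13 partners of DNA methylation, 3 were lower and none higher. Lig1, the DNA ligase of replication, changed by -1.76 ± 0.20, with signals of 8452 in the control, 5401 on day 4, 3639 on day 6 and 2626 on day 8. Dnmt3l, the catalytically inactive cofactor of the de novo enzymes, was lowest on day 4, at -2.55, and stood at -1.76 ± 0.21 on day 8, with signals of 450.0, 76.8, 85.6 and 140. The remaining gene was the replication clamp Pcna at -1.03 ± 0.20, which is also a proliferation marker. Uhrf2, the paralog of Uhrf1, changed by 0.77 ± 0.14 on day 4 and by -0.05 ± 0.14 on day 8. Pcna and Uhrf2 were named after their values had been seen.

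The methyl-CpG readers held 1 gene past 2-fold among 11, the thymine glycosylase Mbd4 at 1.16 ± 0.22. In the Tet and base excision repair list 2 of 21 were higher and none lower, with Idh1, which makes the Tet cofactor alpha-ketoglutarate, at 1.21 ± 0.20. The other, Apobec2, was above background on day 8 alone and was named after its values had been seen.

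Of 12 other PRC2 genes, 1 was past 2-fold on day 8. Phf19, a Polycomb-like accessory subunit, changed by -2.94 ± 0.21, from a signal of 718 in the control to 227, 131 and 99.0. The core subunits Suz12 and Eed changed by 0.12 ± 0.20 and -0.15 ± 0.20 on day 8, and Ezh1, the paralog of Ezh2, by 0.25 ± 0.11, against -1.25 ± 0.20 for Ezh2. Rbbp4 and Rbbp7 of the same list were lower, by -0.57 ± 0.15 and -0.59 ± 0.14, without reaching 2-fold. These genes were named after their values had been seen. Among 21 PRC1 genes 1 was higher, Rybp at 1.02 ± 0.20.

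Of 29 SNF2-type remodelers, the family of Hells, 4 (13.8%) were lower and 6 (20.7%) higher, near the shares of 11.6% and 14.4% over all genes. Ercc6l, a mitotic helicase, and Rad54l, a helicase of homologous recombination, changed by -2.25 ± 0.07 and -2.06 ± 0.21. Smarca1, an ISWI ATPase, was higher by 2.99 ± 0.15 and was at its highest on day 4, at 3.24. Ercc6, which acts in transcription-coupled repair, was higher by 2.06 ± 0.23. Of the other lower genes, Chd3 stood at -1.01 ± 0.20 and Rad54b had a probe below background, and both were named after their values had been seen. In the HMG list 2 of 16 were lower, Hmgb2 at -1.66 ± 0.20 and Hmga1, the paralog of Hmga2, at -1.43 ± 0.13, and Tox was higher by 1.16 ± 0.17.

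Histone chaperones had the largest share of lower genes among the 14 lists, 7 of 22 with 1 higher. Asf1b and Chaf1b, which load new histones at replication, changed by -3.10 ± 0.20 and -2.74 ± 0.14. The paralog Asf1a was higher by 1.23 ± 0.21. Of 18 genes for the supply of methyl donors 3 were lower and 1 higher, led by the mitochondrial folate enzymes Mthfd2 at -1.83 ± 0.20 and Shmt2 at -1.43 ± 0.20. The higher gene was Bhmt at 1.44 ± 0.52, with a probe below background, named after its values had been seen.

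The other lists held few changes. Kdm4d was higher by 2.05 ± 0.31 as the single gene of 20 for H3K9 methylation and HP1, and Kmt2c by 1.56 ± 0.20 as the single gene of 27 for H3K4 and H3K36 methylation. Kdm4d was dim, with a signal of 17.8 in the control and 77.6 on day 8. The lowest control signal well above background was 10.5. Hdac7 was the single histone deacetylase or sirtuin of 18 past 2-fold, at -1.35 ± 0.20. None of 7 H3K27 demethylases and acetyltransferases reached 2-fold.

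**Figure D4:**
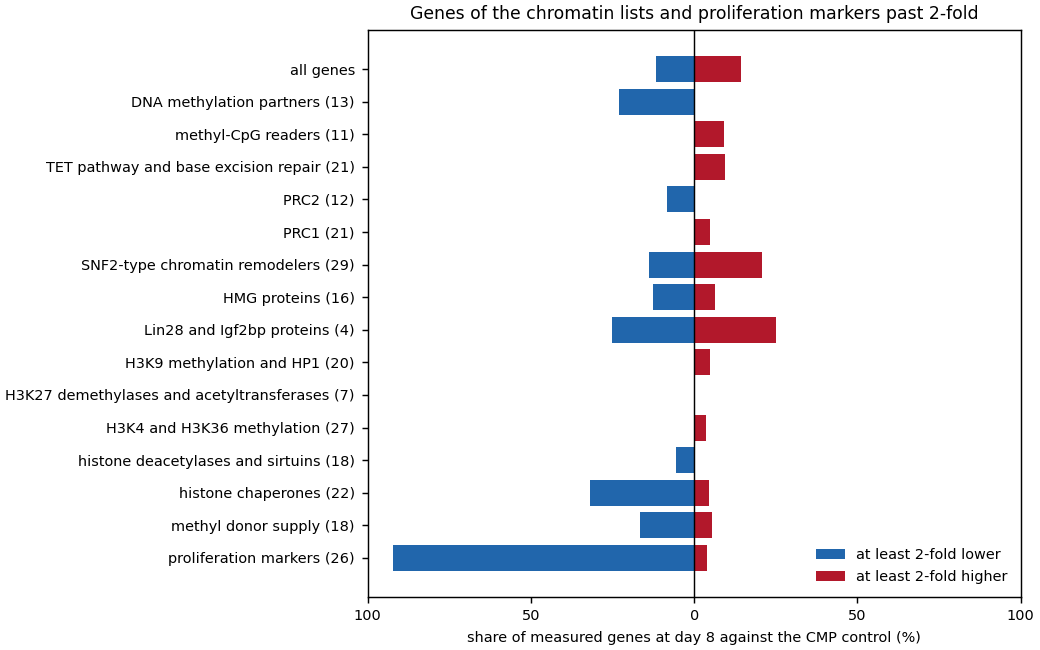
Share of measured genes (x axis, %) that were at least 2-fold lower (left, blue) or higher (right, red) than the CMP control on day 8, for all genes, 14 lists of chromatin genes and the proliferation markers, with the number of measured genes in parentheses. Proliferation markers stand apart with 24 of 26 lower, and histone chaperones follow with 7 of 22.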

How the data were processed

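Each of 4 RNA samples was run on a SurePrint G3 Mouse GE array. The authors' files hold, for each of 62976 spots, a background-subtracted Cy3 intensity with its error and flags, extracted with Feature Extraction (10.7.3.1 in the file headers, 9.5.3 in the submitters' processing notes). The deposited normalized table, made by the authors in GeneSpring, holds log2 values of the same signal, each array shifted by a constant.

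Control spots (3671) and outlier spots (87 to 106 per array) were left out. The log2 signal was averaged over the spots of a probe and set relative to the 75th percentile on its array. A gene took the mean of its probes that were well above background on at least 1 array. Probes of the 10 genes were taken by the gene name in the files, and no RefSeq name disagreed. Other probes were named through RefSeq (GRCm38.p6): 26762 by accession, 3819 by symbol and 639 by synonym, while 24461 had no match. Probe positions are those of the files (mm9), and exon and UTR annotations on that build were not used here. A probe below background was given as a bound, against the higher of its own signal and the lowest signal well above background on that array.

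The genes and lists were chosen with earlier results of these data known. Genes named are the 10, up to 2 genes of each list with the largest changes in each direction at day 8, at least 2-fold and with every kept probe well above background in the control and at day 8, and the 3 nearest time courses of each changed gene. Exceptions are stated where they occur. Alternatives were other background corrections, scales, filters, probe rules and thresholds. The calculation was tested on simulated data. Python 3.11.15, numpy 2.4.6, pandas 2.3.3, R 4.3.3 and limma 3.58.1 were used.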

Additional observations from a re-analysis of the deposited data

How the results depend on the processing

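Across 10 alternative ways of processing, Uhrf1, Hmga2, Hells, Ezh2 and Dnmt1 were at least 2-fold lower at day 8 in each, Tet1 was at least 2-fold higher in all 9 that gave it a value, and Tet2 in 8. Not all of these could move the values. All 20 probes passed the filter on dim probes, and the authors' values differ from those used here by a constant per array. For Dnmt1, Ezh2 and Hells, with 1 probe each, the other filters and the probe rules also repeated the reported value. With normexp correction and quantile normalization, 0, 1 and 1 of the 10 genes were at least 2-fold higher at days 4, 6 and 8, and 8 genes of the chromatin lists were at day 8. With the array median as the scale, 2 genes were lower at day 4, 1 was higher at day 6 and 1 at day 8, and 9 list genes were higher. After the median change of all genes on that scale was subtracted, these counts were 1, 2, 2 and 17, a step chosen after the data had been seen. The brightest probe of each gene gave 2 higher at day 4. Probes matched by accession gave 1 higher at day 6 and 1 at day 8, because no Tet1 probe had an accession match. At a threshold of 1.5-fold, 3 genes were lower and 3 higher at day 4, and 5 were lower at day 6. At 3-fold, 0 were lower at day 4, 1 lower and 1 higher at day 6, and 2 lower and 1 higher at day 8. Of 297 values of single genes under alternatives, 241 moved by less than their error, 56 moved by more and 0 changed sign while past 2-fold. The 241 include values that an alternative could not move. No paired analysis was possible because there was 1 array per condition. For the same reason no array could be left out within a condition, and spread between cultures is unknown.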
